A study of Mus musculus with 40 samples.

Results

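The genes of neutrophils and inflammatory monocytes were followed in the brown adipose tissue of 40 male C57BL/6 mice, 10 in number: S100a8, S100a9, Csf3r, Retnlg, Mmp9, Ly6c2, Itgam, Fgr, Il1b and Fcgr3. They were taken by symbol from a counts table of 52636 genes, and all 10 were among the 17079 genes that passed the filter on low counts and were tested. Brown adipose tissue is the heat-producing fat of the mouse. RNA was read in bulk, so fewer cells of a type and less RNA per cell cannot be told apart anywhere in these data. The mice came from the Jackson Laboratory and were 10 to 14 weeks old per the treatment protocol, or 10 to 12 weeks per the design text. None is described as carrying a transgene or deletion.

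Groups of 5 mice, 8 in all, were sequenced. Control mice received 40 mg/kg of an antibody against ragweed, an isotype control, by intraperitoneal injection. Jag antibody mice received 20 mg/kg each of antibodies against Jag1 and Jag2, which are ligands of the Notch receptors. One control and one Jag antibody group were collected at each of 15 h, 5 d and 7 d after that single dose. A further control group and a further Jag antibody group also received thyroxine (T4, 1 ug per g of body weight) and triiodothyronine (T3, 0.05 ug per g) every day from day 2, and were collected at 7 d. Whether mice of the other groups received injections of vehicle is not given in the sources used here. Within each group the numbers 1 to 5 denote control mice and 6 to 10 denote Jag antibody mice.

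Neutrophils leave the bone marrow already loaded with granules and with a large store of S100a8 and S100a9, calcium-binding proteins that pair into calprotectin. Their production depends on G-CSF, which signals through Csf3r, and they enter tissue through integrins such as Itgam. Inflammatory monocytes carry Ly6c2 and Ccr2 and can become macrophages in tissue. Itgam, Fgr and Fcgr3 are shared by neutrophils, monocytes and many macrophages, so the 10 genes do not mark 1 cell type.

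The libraries held 12217623 to 36511893 counts, with a median of 18949808. Levels are given as log2 CPM, the log2 of counts after TMM scaling of library totals (prior count 2). On this scale a gene with no counts reads -3.37. The tissue label was checked first. Ucp1, the uncoupling protein of brown fat, ranged from 9.11 to 14.38 log2 CPM over the 40 mice, and the adipocyte hormone Adipoq from 8.96 to 11.63. Ly6g, the defining surface marker of mouse neutrophils, had at least 1 count in 21 of 40 mice and failed the filter. Of the genes of immature neutrophils, Mpo and Ctsg also failed the filter, and Elane had at most 29 counts in any mouse.

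One library stood apart before any comparison. Control mouse 2 at 15 h had the highest level of the 40 mice for 9 of the 10 genes, and control mouse 3 at 15 h had the highest for the remaining gene, Ly6c2. Those 2 mice were the top 2 of 40 for 6 of the 10 genes. Mouse 2 alone held 78.55% of all S100a8 counts of the study (15484 of 19712), 77.19% of S100a9, 68.92% of Csf3r, 66.39% of Retnlg, 63.64% of Il1b and 51.48% of Mmp9. Its share was lower for Fgr (44.78%), Itgam (35.31%), Ly6c2 (28.37%) and Fcgr3 (20.13%). The same library held 50 Ly6g counts, where the next highest mouse had 5. It held 5187 counts of Cxcr2, a chemokine receptor of mature neutrophils (next highest 326), and 1459 of the granule collagenase Mmp8 (next highest 225). Of the other granule and maturation genes it had the highest count of the 40 mice for Lcn2 (3622, next 2907), Cd177 (234, next 129), Ltf (34, next 12), Cebpe (24, next 3), Ngp (17, next 3) and Camp (5, next 2). It did not for Prtn3 (27, highest elsewhere 149), Elane (8 and 29), Ctsg (6 and 9), Mpo (0 and 13) or Ms4a3 (0 and 1). Its Ucp1 was the lowest of the 40 mice (9.11 log2 CPM).

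Other blood cell markers also moved in that library. The platelet genes Pf4 and Ppbp had 5711 and 5554 counts, against at most 1059 and 304 in any other mouse. The summed level of 4 platelet markers was 502.5 CPM in mouse 2, against a group median of 19.48. The 9 macrophage markers summed to 3397 CPM in mouse 2 and 2748 CPM in mouse 3, against 478.1 to 859.9 CPM in the other 3 control mice at 15 h. Haemoglobin and erythroid genes summed to 288.8 CPM in mouse 2 with a group median of 197.8, and B and T lymphocyte genes to 8.905 with a group median of 6.22. The source of this signal was not tested. Results that use the control group at 15 h are therefore given with and without mouse 2, and without mice 2 and 3, a choice made after their values were seen.

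**Figure D1:**
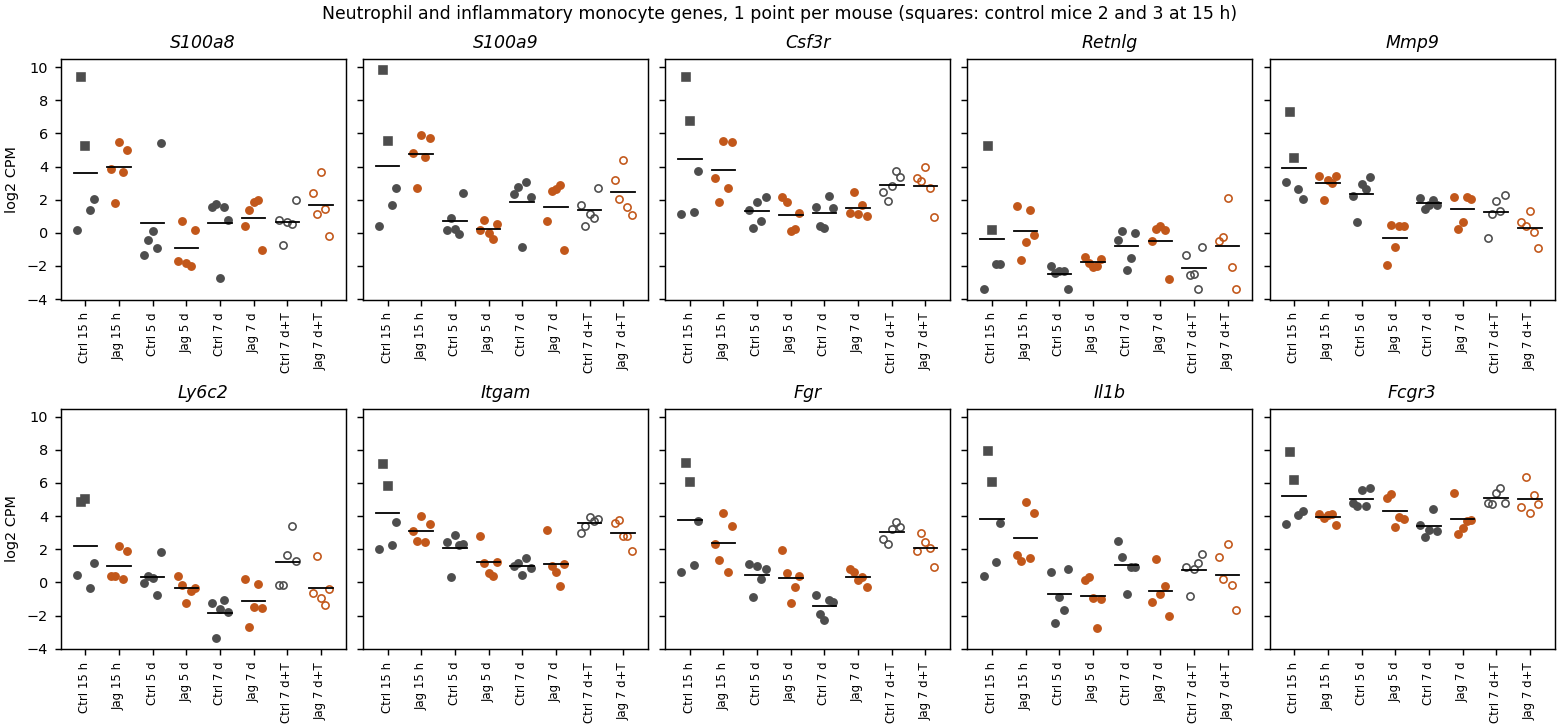
Level of each of the 10 genes (log2 CPM, vertical axis) in each mouse of the 8 groups; grey is control antibody, orange is Jag antibody, open circles are mice given thyroid hormone (+T), and black bars are group means. Control mice 2 and 3 at 15 h, drawn as squares, lie above the rest of their group for most genes, with mouse 2 at 9.42 for S100a8.

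The stretches before the start sites of 4 of the genes are shown because Itgam and Ly6c2 rose with thyroid hormone in control mice while S100a8 and S100a9 did not pass the test. RefSeq (GRCm38.p6) promoter windows of 250 bases before to 50 bases after the start were found for 9 of the 10 genes, in 11 windows. Mmp9 had no entry. Both strands were searched for GAGGAA, the core letters bound by PU.1, a myeloid transcription factor, and for TTGCNNAA, a form of the site of the C/EBP factors. GAGGAA occurred in windows of 6 of the 9 genes, and in 28.3% of all 32851 promoter windows. TTGCNNAA occurred in 3 of the 9, and in 10.8% of all windows. TATAAA, the TATA box, occurred in 3 of the 9 and in 13.6% of all windows. No GAGGAA match overlapped a TTGCNNAA match, and a match is a description of letters only. The 250 bases before the start are printed 5′ to 3′ on the gene's own strand, with matches to GAGGAA or TTGCNNAA, on either strand, in capitals.
S100a8 (chr3:90668821-90669070, plus strand): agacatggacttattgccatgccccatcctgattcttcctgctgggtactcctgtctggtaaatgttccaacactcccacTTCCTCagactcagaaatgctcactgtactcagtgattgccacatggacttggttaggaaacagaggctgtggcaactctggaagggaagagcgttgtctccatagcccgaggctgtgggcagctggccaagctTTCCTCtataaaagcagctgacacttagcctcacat
S100a9 (chr3:90695722-90695971, minus strand): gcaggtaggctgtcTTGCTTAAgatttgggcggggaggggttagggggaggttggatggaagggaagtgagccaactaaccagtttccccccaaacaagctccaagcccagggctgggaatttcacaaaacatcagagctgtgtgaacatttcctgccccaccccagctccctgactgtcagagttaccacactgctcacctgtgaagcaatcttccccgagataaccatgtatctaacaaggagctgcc
Itgam (chr7:128062390-128062639, plus strand): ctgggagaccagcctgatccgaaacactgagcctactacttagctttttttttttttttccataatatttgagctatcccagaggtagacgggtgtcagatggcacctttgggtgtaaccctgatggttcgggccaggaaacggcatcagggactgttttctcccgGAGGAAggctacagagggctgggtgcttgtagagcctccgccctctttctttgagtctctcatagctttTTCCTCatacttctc
Ly6c2 (chr15:75111972-75112221, minus strand): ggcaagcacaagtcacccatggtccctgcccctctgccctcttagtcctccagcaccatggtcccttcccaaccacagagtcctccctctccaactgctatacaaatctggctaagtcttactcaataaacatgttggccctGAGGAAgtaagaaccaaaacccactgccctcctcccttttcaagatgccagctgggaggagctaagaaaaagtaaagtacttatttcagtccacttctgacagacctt
S100a8 holds GAGGAA, read on the opposite strand, at -170 and -36 from its start (first base of the match, negative before the start), the latter directly before a TATAAA. S100a9 holds no GAGGAA in its window and 1 TTGCNNAA at -236. Itgam holds GAGGAA at -84 and, on the opposite strand, at -15, and once more within the 50 bases after its start. Ly6c2 holds it at -108 from the start shown and again after that start.

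Levels between genes were compared per length, as counts per kilobase of exon scaled to the library total. Over the 40 mice the median was highest for Fcgr3 (11.88), followed by S100a9 (6.789) and S100a8 (3.256). Itgam (1.077), Mmp9 (1.065), Csf3r (1.014) and Il1b (0.8705) formed a middle range, and Fgr (0.48), Retnlg (0.4157) and Ly6c2 (0.299) were lowest. Retnlg had no counts in 4 mice and Ly6c2 in 1, while the other 8 genes were counted in every mouse. When the 8 groups were ranked by mean log2 CPM for each gene, control mice at 15 h ranked first for 7 of 10 genes, and Jag antibody mice at 15 h ranked first for S100a8, S100a9 and Retnlg. In all 70 pairs of neighbours in those rankings (7 for each gene) the ranges of the 2 groups overlapped.

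S100a8 and S100a9 lie near each other on chromosome 3 (GRCm38, 90668978 to 90670035 and 90692632 to 90695721, GENCODE M21) and encode the 2 subunits of calprotectin. In control mice at 15 h S100a8 was 0.17, 9.42, 5.24, 1.35 and 2.01 log2 CPM in mice 1 to 5. In Jag antibody mice at 15 h it was 3.85, 1.81, 5.45, 3.68 and 4.98 in mice 6 to 10. The control values thus spread far more widely (SD 3.74) than the Jag antibody values (SD 1.41), and the groups overlapped. At 7 d the controls were 1.57, 1.74, -2.7, 1.53 and 0.78, and the Jag antibody mice 0.43, 1.38, 1.86, 1.99 and -1.05. With hormone the control values were 0.77, -0.74, 0.65, 0.54 and 1.97, and the Jag antibody values 2.43, 1.12, 3.68, 1.41 and -0.2. At 5 d control mouse 5 stood at 5.43 with the other 4 between -1.34 and 0.13, and the Jag antibody mice lay between -2.0 and 0.72.

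S100a9 followed the same order at 15 h, with 0.42, 9.82, 5.55, 1.67 and 2.72 log2 CPM in controls and 4.81, 2.72, 5.91, 4.58 and 5.73 in Jag antibody mice. At 7 d it ran from -0.86 to 3.08 in controls and from -1.05 to 2.88 in Jag antibody mice. With hormone the ranges were 0.41 to 2.69 and 1.06 to 4.39. Groups within each time overlapped. The count of S100a8 over that of S100a9 was 0.125 to 1.0 in 39 mice, with a median of 0.5774, and 8.159 in control mouse 5 at 5 d, which had 514 S100a8 and 63 S100a9 counts.

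Csf3r (chromosome 4, 126024550 to 126044440) encodes the receptor of G-CSF. It read 1.11, 9.39, 6.74, 1.25 and 3.74 log2 CPM in control mice at 15 h and 3.28, 1.83, 5.54, 2.68 and 5.5 in Jag antibody mice. At 5 d and 7 d without hormone, all 20 mice lay between 0.09 and 2.46. With hormone the controls were 2.44, 1.94, 2.81, 3.75 and 3.34, and the Jag antibody mice 3.28, 3.15, 3.98, 2.69 and 0.94.

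Itgam (chromosome 7, 128062640 to 128118491) encodes CD11b, the alpha chain of the integrin Mac-1. Its annotation overlaps Gm49368 on the same strand, so reads of the shared exons could be divided by the counting. Control mice at 15 h read 2.04, 7.15, 5.82, 2.27 and 3.62 log2 CPM, and controls at 7 d 1.01, 1.2, 0.43, 1.46 and 0.86. Every control at 7 d was thus below every control at 15 h. With hormone the controls were 3.0, 3.38, 3.93, 3.73 and 3.84, all above the untreated controls at 7 d. Jag antibody mice with hormone were 3.57, 3.74, 2.78, 2.8 and 1.88, and without it 3.14, 0.99, 0.62, -0.23 and 1.09, where mouse 6 alone reached the hormone range.

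Fcgr3 (chromosome 1, 171051174 to 171064935) encodes CD16, an activating receptor for IgG, and resembles Fcgr2b and Fcgr4 in sequence, so its counts are uncertain to that extent. Its range over the 40 mice, 2.74 to 7.87 log2 CPM, was the narrowest of the 10. Controls at 7 d were 3.48, 2.74, 3.14, 4.43 and 3.11, and controls with hormone 4.77, 4.7, 5.41, 5.67 and 4.79, with no overlap. Jag antibody mice were 5.39, 2.94, 3.3, 3.72 and 3.76 without hormone and 4.54, 6.36, 4.2, 5.26 and 4.72 with it, and overlapped through mouse 6.

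Fgr (chromosome 4, 132974095 to 133001910) encodes a Src family kinase that acts downstream of integrins and Fc receptors. It read 0.64, 7.18, 6.08, 1.06 and 3.73 log2 CPM in controls at 15 h. Controls at 7 d were the lowest group, at -0.79, -1.88, -2.25, -1.07 and -1.21, which are counts of 2 to 9 per mouse. Jag antibody mice at 7 d were 0.83, 0.63, 0.17, 0.34 and -0.28 (15 to 39 counts), all above those controls. With hormone the controls were 2.62, 2.32, 3.22, 3.62 and 3.35, and the Jag antibody mice 1.91, 2.97, 2.41, 2.06 and 0.94. In both antibody groups every mouse with hormone was above every mouse without it.

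Ly6c2 (chromosome 15, 75108158 to 75111970) encodes the surface protein by which inflammatory monocytes are recognised. It has a near-identical neighbour, Ly6c1, which endothelial cells express, so the division of reads between them is uncertain. Controls at 15 h read 0.42, 4.82, 5.03, -0.36 and 1.14 log2 CPM. Controls at 7 d read -1.26, -3.37, -1.62, -1.07 and -1.8, which are 0 to 6 counts. With hormone the controls were -0.15, -0.14, 1.63, 3.41 and 1.27, and mouse 4, at 225 counts, was the highest. Jag antibody mice were 0.23, -2.72, -1.5, -0.11 and -1.56 without hormone and -0.64, 1.58, -0.94, -1.36 and -0.4 with it.

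The secreted products were Il1b, Mmp9 and Retnlg. Il1b (chromosome 2, 129364570 to 129371139), the fever-inducing cytokine, overlaps the antisense gene Il1bos, and without a statement on strand their reads cannot be told apart. It read 0.36, 7.92, 6.06, 1.25 and 3.57 log2 CPM in controls at 15 h and 1.66, 1.27, 4.86, 1.5 and 4.16 in Jag antibody mice. At 7 d the ranges were -0.71 to 2.52 in controls and -2.05 to 1.44 in Jag antibody mice. Retnlg (chromosome 16, 48872621 to 48874496), a resistin-like protein of neutrophils, was below 20 counts in 35 of 40 mice. Its 865 counts in control mouse 2 at 15 h compare with 0, 17, 3 and 3 in the rest of that group.

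Mmp9 (chromosome 2, 164940780 to 164955850), is a gelatinase stored in neutrophil granules. Controls at 5 d were 2.22, 0.67, 2.93, 2.65 and 3.36 log2 CPM, and Jag antibody mice -1.96, 0.49, -0.84, 0.41 and 0.4. The groups did not overlap, as for 3.16% of all tested genes in that direction, and control mouse 2 lay nearest to the Jag antibody range. At 7 d they overlapped, with controls at 1.45 to 2.09 and Jag antibody mice at 0.21 to 2.19.

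All 10 genes were lower at 7 d than at 15 h in control mice in edgeR's quasi-likelihood test (Benjamini-Hochberg adjusted p under 0.05 over all tested genes, here termed called). Of all genes, 23.5% were called lower in the same comparison. The log2 fold changes ran from -7.23 for Fgr (SE 1.02, adjusted p = 6.29e-06) to -2.66 for Fcgr3 (SE 0.61, adjusted p = 0.0007746), with a median of -4.99, where the median over all tested genes was -0.06. S100a8 fell by 6.14 (SE 1.55, adjusted p = 0.001911) and Csf3r by 6.02 (SE 1.13, adjusted p = 0.0001038) on the log2 scale. Ly6c2, Itgam and Fgr alone of the 10 had groups that did not overlap, and 11.9% of all tested genes were apart in that direction. With limma, S100a9 and Retnlg were called neither on log2(FPKM + 1) nor on log2(FPKM + 0.1).

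These fitted changes compare mean counts and rest in part on 2 libraries. Mean log2 CPM of S100a8 was 3.64 ± 3.74 (SD, n = 5) at 15 h and 0.58 ± 1.88 at 7 d. Without control mouse 2, 7 of the 10 genes were called lower, against 18.3% of all genes. The 3 that were lost were S100a8 (-2.4, SE 1.18, adjusted p = 0.1082), S100a9 (-1.53, SE 0.84, adjusted p = 0.149) and Retnlg, whose sign turned (0.8, SE 0.99, adjusted p = 0.5526). Without mice 2 and 3, the 3 called genes were Fgr (-4.18, adjusted p = 0.0005459), Itgam (-1.85, adjusted p = 0.02094) and Ly6c2 (-2.56, adjusted p = 0.03206), against 11.0% of all genes, all in edgeR. S100a9 (0.44) and Retnlg (2.33) were then on the positive side and not called.

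**Figure D2:**
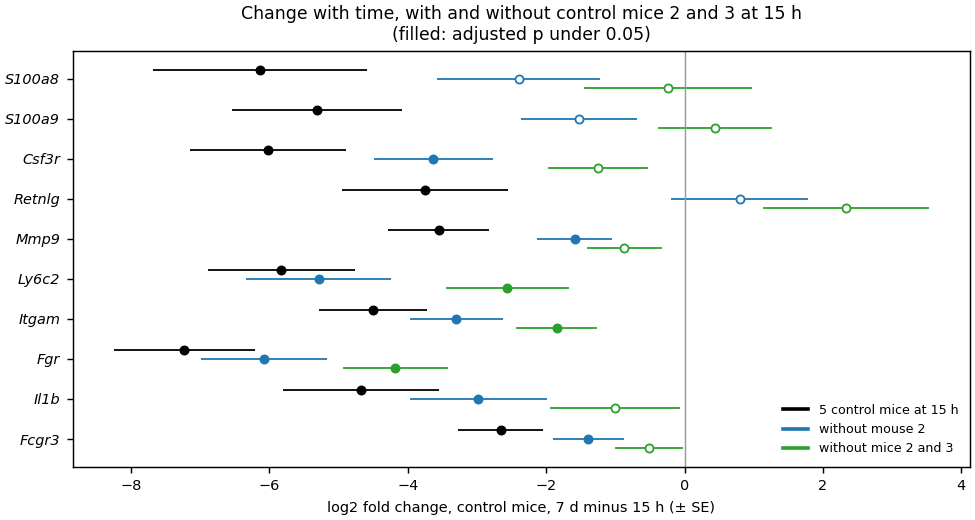
Fitted log2 fold change of each gene in control mice, 7 d minus 15 h, with its SE as a bar, for all 5 control mice at 15 h (black), without mouse 2 (blue) and without mice 2 and 3 (green); filled points had an adjusted p under 0.05. Fgr, Itgam and Ly6c2 are filled in all 3 fits, while Retnlg moves from -3.75 to 2.33.

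In Jag antibody mice 3 of the 10 genes were called lower at 7 d than at 15 h, where 7.93% of all genes were. Il1b fell by 3.67 (SE 1.11, adjusted p = 0.02182), Fgr by 2.6 (SE 0.81, adjusted p = 0.02413) and Csf3r by 2.94 (SE 0.98, adjusted p = 0.03521) on the log2 scale in edgeR. S100a9 stood at -3.05 (SE 1.11, adjusted p = 0.05246) and S100a8 at -3.2 (SE 1.36, adjusted p = 0.09461), neither called. Fcgr3 was at 0.15 (SE 0.58, adjusted p = 0.8784). The median was -2.41, against 0.04 over all tested genes. In none of the 10 were the groups apart, where 8.33% of all tested genes were apart and lower and 8.49% apart and higher. None of the 10 was called by edgeR without Jag antibody mouse 8 at 15 h or without mouse 10 at 7 d. Over the fits leaving out each mouse, 1678 to 3167 of 17079 genes were called in either direction. On log2(FPKM + 1) with limma none of Il1b (adjusted p = 0.1856), Fgr (0.5211) and Csf3r (0.3229) was called, and on log2(FPKM + 0.1) Il1b was (adjusted p = 0.03943) and the other 2 were not. Without the filter on low counts, Fgr (adjusted p = 0.05686) and Csf3r (adjusted p = 0.07438) were not called in edgeR. DESeq2 called 7 of the 10, and 3880 of 17079 genes in either direction. Whether the change with time differed between antibodies was not tested.

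Other genes of the same cells were read from lists. The counts stand beside 23.5% of all genes called lower, 18.3% without mouse 2 and 11.0% without mice 2 and 3. Of 14 tested receptors and surface genes of mature neutrophils, 14 were called lower at 7 d in control mice, led by the lectin receptor Clec4e (-8.79, SE 1.45), the formyl peptide receptor Fpr1 (-7.5, SE 1.5) and Cxcr2 (-6.88, SE 1.43). The number was 13 without mouse 2, and 3 without both mice 2 and 3. Of 10 genes on the monocyte list, 8 were lower, including Ms4a4c (-6.68), the chemokine receptor Ccr2 (-5.82, SE 0.69) and Plac8 (-5.68). Ly6c1, which endothelial cells express, alone was higher (0.84). The count of lower genes was 8 without mouse 2 and 6 without both mice. Of 13 partners of integrins and Fc receptors, 12 were lower (11 without mouse 2, 6 without both), among them the integrin beta chain Itgb2 (-4.54, SE 0.69).

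Of 9 recruiting ligands and growth factors, 7 were lower in control mice at 7 d, led by the chemokines Cxcl5 (-8.4), Cxcl2 (-6.09) and Ccl2 (-5.3). The count was 6 without mouse 2 and 0 in edgeR without mice 2 and 3, where 1 had an unadjusted p under 0.05. In the interleukin-1 pathway 7 of 8 were lower, among them the receptor antagonist Il1rn (-5.15) and the sensor Nlrp3 (-4.52), and 1 without both mice. Of 4 tested granule and maturation genes, Mmp8 (-7.1), Lcn2 (-4.38) and Elane (-2.19) were lower, and the number was 3 of 4 without mouse 2 and 0 of 4 in edgeR without both mice (1 at an unadjusted p under 0.05). In Jag antibody mice, where 7.93% of all genes were called lower, the receptors counted 6 of 14 lower (Clec4e -4.95 and Cxcr2 -3.78 among them), the monocyte genes 6 of 10 (Plac8 -3.68, Ms4a4c -3.6, Vcan -2.7) and the granule genes 1 of 4 (Lcn2 -4.38).

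Markers of other cells moved with time as well. In control mice 5 of 5 pan-leukocyte genes and 6 of 9 macrophage genes were called lower at 7 d, and 5 of 5 haemoglobin and erythroid genes were higher (median 2.33). Of 7 brown adipocyte genes 3 were also higher, Cidea, Ucp1 and Fabp4. The shares over all genes were 23.5% lower and 21.6% higher. Without mouse 2, 5 of 5 pan-leukocyte and 5 of 9 macrophage genes were lower, against 18.3% of all genes. Without mice 2 and 3 the counts were 3 of 5 and 3 of 9, against 11.0% of all genes. In that last fit, where 25.9% of all genes were called in either direction, erythroid genes were also 5 of 5 higher. The summed erythroid level was 146.7 to 288.8 CPM in controls at 15 h and 406.2 to 1602 CPM at 7 d. Of 3 platelet genes 2 were lower with all mice, and 0 in edgeR without mouse 2, where 1 had an unadjusted p under 0.05. In Jag antibody mice 6 of 7 lymphocyte genes were lower at 7 d, where 7.93% of all genes were. Their summed level was 89.49 CPM in mouse 6 at 15 h, where the group median was 3.875. The part of these shifts in the results for the 10 genes was not tested.

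**Figure D3:**
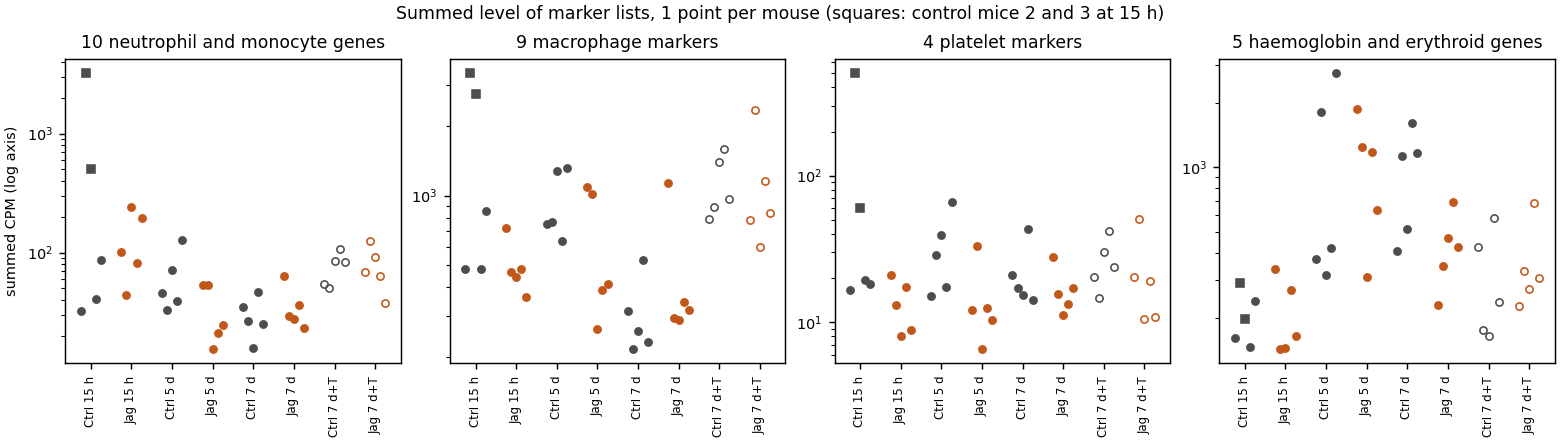
Summed CPM (log axis) of the 10 genes and of macrophage, platelet, and haemoglobin and erythroid markers in each mouse; colours and symbols are as in the plot of levels by mouse. Control mouse 2 at 15 h is the highest of the 40 mice in the first 3 panels, at 3246, 3397 and 502.5 CPM, and not in the erythroid panel, at 288.8 CPM.

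In control mice, Fgr, Ly6c2, Itgam and Fcgr3 were higher with hormone than without at 7 d, and each had groups that did not overlap, as did 14.6% of all tested genes in that direction. The other 6 were not called. The change was 4.81 for Fgr (SE 0.95, adjusted p = 0.0002108), a 27.99-fold difference over a control level of 2 to 9 counts. It was 3.94 for Ly6c2 (SE 1.01, adjusted p = 0.002302), over 0 to 6 counts, 2.66 for Itgam (SE 0.73, adjusted p = 0.003736) and 1.64 for Fcgr3 (SE 0.59, adjusted p = 0.02521) in edgeR. The share of 4 in 10 stands beside 20.3% of all genes called higher. The median of the 10 was 0.7, against 0.04 over all tested genes. Controls at 7 d without hormone had the lowest mean of the 8 groups for each of Fgr, Ly6c2, Itgam and Fcgr3. Mean log2 CPM in controls at 5 d was 5.06 for Fcgr3, 2.05 for Itgam, 0.46 for Fgr and 0.33 for Ly6c2. With hormone at 7 d those means were 5.07, 3.58, 3.03 and 1.2. TMM factors were 0.6466 to 0.9256 in controls at 7 d and 1.01 to 1.182 with hormone. The part of a low control group at 7 d in these changes was not tested.

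The 6 genes not called included S100a8, S100a9 and Retnlg, described above as products of neutrophils. S100a8 was at -0.23 (SE 1.36), S100a9 at -0.73 (SE 1.08), Retnlg at -1.61 (SE 1.28), Mmp9 at -0.27 (SE 0.68) and Il1b at -0.44 (SE 1.02), with adjusted p from 0.3208 to 0.9045 in edgeR. Csf3r was at 1.68 (SE 0.97, adjusted p = 0.1614). The SEs of S100a8, S100a9, Retnlg and Il1b exceed 1 log2 unit, so changes of that size were not detectable here. The call of Fcgr3 was lost when control mouse 2, 3 or 5 at 7 d or control mouse 4 with hormone was left out. On log2(FPKM + 1), limma called only Fcgr3 (1 of 10), and 7093 of 17079 genes in either direction.

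**Figure D4:**
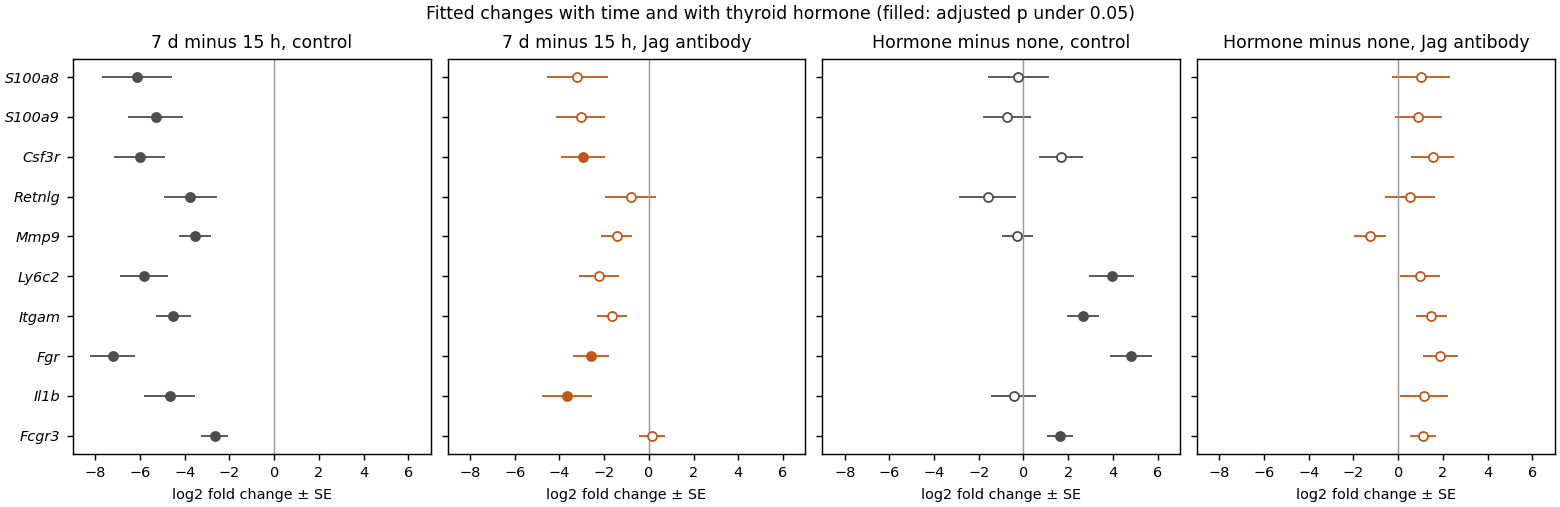
Fitted log2 fold change with its SE (bars) for each gene, for 7 d minus 15 h and for hormone minus no hormone at 7 d, in control (grey) and Jag antibody (orange) mice; filled points had an adjusted p under 0.05. With hormone in controls the filled genes are Fgr (4.81), Ly6c2 (3.94), Itgam (2.66) and Fcgr3 (1.64), and no gene is filled with hormone in Jag antibody mice.

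Other myeloid genes were read from the same lists, beside 20.3% of all genes called higher and 22.9% lower. Of 13 integrin and Fc receptor partners, 11 were called higher with hormone, led by Itgb2 (3.73, SE 0.67), the high-affinity IgG receptor Fcgr1 (3.37) and the exchange factor Vav1 (3.11). Of 10 monocyte genes, 8 were higher, led by Ms4a4c (4.14), Plac8 (3.43) and Ccr2 (3.23), and Nr4a1 (-2.63) and Ly6c1 (-0.66) were lower. Of 14 neutrophil receptors, 7 were higher, with Clec4e (4.13), Clec4d (2.99) and Selplg (2.71) in front. None of the 4 tested granule genes was called with edgeR or limma and 1 was with DESeq2, and the median was 0.56. An unadjusted p under 0.05 was found for 1 of the 4 and for 50.7% of all genes. Of 9 ligands 2 rose, a share near that over all genes. They were Csf1 (1.69), the macrophage growth factor, and Cxcl12 (0.63). All 5 partners of Mmp9 rose, among them the inhibitor Timp1 (2.39) and the protease Mmp14 (2.03), and 4 of 8 interleukin-1 pathway genes.

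Macrophage markers rose in the same comparison, 7 of 9, led by Adgre1 (2.97), Cd68 (2.7) and Mrc1 (2.53). Their summed level was 215.5 to 524.5 CPM in controls at 7 d and 793.1 to 1598 CPM with hormone. In controls at 5 d it was 633.3 to 1317 CPM. Of 5 pan-leukocyte genes 4 rose, and 4 of 5 erythroid genes fell and 4 of 7 brown adipocyte genes fell, led by Cidea (-2.05), Fabp4 (-1.77) and Adipoq (-1.76). Of 4 endothelial genes 3 rose. Of all genes, 20.3% were called higher and 22.9% lower. No lymphocyte gene of 7 and no platelet gene of 3 was called with edgeR, DESeq2 or limma. In edgeR 0 of them had an unadjusted p under 0.05, against 50.7% of all genes. How far these shifts bear on Fgr, Ly6c2, Itgam and Fcgr3, which macrophages and monocytes share, was not tested.

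In Jag antibody mice none of the 10 genes was called with hormone by edgeR, DESeq2 or limma, where 9.5% of all genes were called in either direction. The estimates of 9 of 10 were on the positive side, with a median of 1.08 (-0.04 over all tested genes). An unadjusted p under 0.05 was found for 2 of the 10 and for 27.0% of all genes. Fgr was at 1.89 (SE 0.79, adjusted p = 0.1185) with groups that did not overlap (5.23% of all tested genes were apart in that direction), and Itgam at 1.49 (SE 0.69, adjusted p = 0.1541). A fit of these 2 groups alone called 2, Csf3r and Fgr, and 2782 of 14955 genes in either direction. In the main fit 4.29% of all genes were called higher. The monocyte genes Vcan (3.28, SE 0.61), Ccr2 (2.25) and Cx3cr1 (1.75) rose, 3 of 10, as did the macrophage genes Lyz2 (1.72), Adgre1 (1.69) and Mertk (1.1), 3 of 9, and of 14 neutrophil receptors edgeR called 0 (2 at an unadjusted p under 0.05) and DESeq2 1.

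The difference between the antibodies in the response to hormone was tested as an interaction. No gene of the 10 was called by edgeR, DESeq2 or limma, and 2 had an unadjusted p under 0.05. Of all genes, 0.00586% were called, which is 1 gene, and 2103 of 17079 had an unadjusted p under 0.05. The estimates were -2.96 for Ly6c2 (SE 1.35, adjusted p = 0.3813) and -2.91 for Fgr (SE 1.21, adjusted p = 0.3738), both to the side of a smaller rise in Jag antibody mice. The passing of Fgr in controls and not in Jag antibody mice is thus not shown to be a difference between them. The hormone and time comparisons share the 7 d groups without hormone, so their values are not independent of each other.

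Antibody comparisons yielded 1 called gene in all. At 15 h none of the 10 was called by edgeR, where 1.14% of all genes were, although all 10 had an unadjusted p under 0.05, as had 12.0% of all genes (2052 of 17079), and fitted changes from -2.84 to -2.19 (median -2.5, against -0.04 over all tested genes). DESeq2 called 5 (and 577 of the 17079 genes) and limma 0. The 5 were Fcgr3, Fgr, Itgam, Mmp9 and Csf3r. The groups overlapped for each of the 10, where 0.919% of all tested genes were apart and lower and 1.56% apart and higher. The sign of the fitted change and that of the mean log2 CPM disagreed for 3 genes. S100a8 averaged 3.96 ± 1.41 (SD, n = 5) in Jag antibody mice and 3.64 ± 3.74 in controls, S100a9 4.75 ± 1.27 and 4.03 ± 3.75, and Retnlg 0.12 ± 1.36 and -0.35 ± 3.38, all higher in Jag antibody mice on that scale.

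Without control mouse 2 the fitted changes at 15 h turned positive for S100a8 (0.94, SE 1.14), S100a9 (1.29, SE 0.85) and Retnlg (2.06, SE 0.97). Without mice 2 and 3, 9 of 10 were positive, up to 3.57 for Retnlg (SE 1.19, adjusted p = 0.6218) and 3.25 for S100a9 (SE 0.92, adjusted p = 0.3266), and Fcgr3 was at -0.05. None was called by edgeR in either fit, with 3 and 4 at an unadjusted p under 0.05. On the lists with all mice, 2 of 10 monocyte genes were called lower, Ccr2 (-3.71) and Vcan (-2.2), and Ly6c1 (0.96) higher. Of 13 integrin and Fc receptor partners 3 were lower, Itgax (-2.74), Itgb2 (-2.49) and Lyn (-1.33). Of 14 receptors 2 were lower, Cxcr4 (-2.68) and Cd14 (-1.82), and of 4 granule genes 1, Mmp8 (-4.0). The shares over all genes were 0.902% lower and 0.234% higher. Markers of other cells were also called lower, namely the platelet genes Ppbp (-6.19) and Pf4 (-2.71), 2 of 3 tested, Cd53 (-2.66) of 5 pan-leukocyte genes and Lyz2 (-2.32) of 9 macrophage genes. Their part in these values was not tested. Without mouse 2 edgeR called 1 monocyte gene lower and none of the other lists, and without both mice none, with 3 of 10 monocyte genes and 2 of 14 receptors at an unadjusted p under 0.05. Of all genes, 0.0234% were called lower without mouse 2 and 0.0117% without both mice.

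At 5 d Mmp9 was the 1 gene of the 10 called by edgeR, where 5.93% of all genes were called lower. It was 6.713-fold lower in Jag antibody mice (log2 -2.75, SE 0.73, adjusted p = 0.01996, edgeR). Skeletal muscle genes fell in the same comparison, 6 of 8 with a median of -11.59, and with their mean level as a covariate Mmp9 was at -2.53 (SE 0.88) and no longer called. Its call was also lost without control mouse 5 or without Jag antibody mouse 6 or 8. S100a8 was at -3.79 (SE 1.47, adjusted p = 0.107), called by DESeq2 alone, with the level of control mouse 5 described above. The other genes lay between -0.92 and 0.95. Of the lists, the granule protease Prtn3 (-2.99) and the inhibitor Timp2 (-1.33) were lower.

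At 7 d none of the 10 was called between antibodies without hormone by edgeR, DESeq2 or limma, where 2.5% of all genes were. One had an unadjusted p under 0.05, Fgr at 2.0 (SE 0.95, adjusted p = 0.2259), whose groups did not overlap, as for 1.72% of all tested genes in that direction. Of all genes, 20.5% had an unadjusted p under 0.05. With hormone none was called by these 3 tools, with 1.14% of all genes called. An unadjusted p under 0.05 was found for 11.9% of all genes and for 2 of the 10. Those 2 were Ly6c2 at -1.84 (SE 0.85, adjusted p = 0.3776) and Retnlg at 2.57 (SE 1.24, adjusted p = 0.4074). The medians were 0.34 and 0.08, against 0.05 and -0.02 over all tested genes. Elane (2.78, SE 0.78) was the one gene of the lists called at 7 d without hormone, higher in Jag antibody mice.

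The 10 genes did not vary as 1 block from mouse to mouse. Over the 45 pairs of genes, Pearson's r of log2 CPM across the 40 mice ran from 0.13 to 0.95 with a median of 0.63, and from -0.34 to 0.92 with a median of 0.41 in the 38 mice without control mice 2 and 3 at 15 h. These values share groups and library depth and are descriptions. Likeness was sought among 12140 tested genes with a mean of at least 1 log2 CPM, from which any of the 10 were left out. The genes most like Itgam were Nfam1 and Lcp1 (r = 0.95 each) and Il13ra1 (0.94), at 0.91 to 0.92 over 38 mice. Among those most like Csf3r were Rab32 and Slfn1 (0.92 each, 0.83 and 0.85 over 38 mice). Among those most like S100a8 were Hp, which encodes haptoglobin (0.81), and Casp4 (0.79), at 0.77 and 0.69 over 38 mice. Il1b was most like Casp4 (0.87), the chemokine Ccl7 (0.87) and Slfn4 (0.86), at 0.77 to 0.8 over 38 mice.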

How the data were processed

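Total RNA of brown adipose tissue was extracted with Trizol and columns and read as single-end 50 bp reads, per the labels' protocols. GSNAP and limma are named in the submitters' processing notes, without versions. The counting program, genome build and use of strand are not given in the sources used here. The authors deposited raw counts per Ensembl gene for 52636 genes, and FPKM values for the same mice. Each deposited FPKM value was the count divided by a library factor and a gene length (14290 genes, largest departure 5.151e-13). Identifiers matched a symbol for 52403 genes.

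The test was edgeR 4.0.16 (R 4.3.3) on counts: filterByExpr over the 8 groups (17079 genes kept), TMM scaling, 1 robust quasi-likelihood model of group means for all 40 libraries, and Benjamini-Hochberg adjustment over all tested genes, called under 0.05. Fold changes are Jag antibody minus control, hormone minus none, and 7 d minus 15 h. Each mouse is a separate sample, and the mates most alike still differed (chi-square per degree of freedom 17.86), so none was counted as a duplicate. Depth was 12217623 to 36511893 counts per library, and a gene with few counts is imprecise. Same-numbered mice are different animals and their deviations were not correlated above 0.1 in every pair, so the numbers were not taken as pairs.

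The 10 genes and the lists were chosen with earlier results of these data known, so counts over them are descriptions. Named genes are the 10, and of each list up to 3 called genes per direction with the largest change. One gene that this rule and the ranking of likeness select is not reported here. Likeness was ranked by Pearson's r for S100a8, Csf3r, Itgam and Il1b. Marker lists for mast cells and basophils (1 of 4 genes called, Mcpt4, in the antibody comparison at 5 d, 0 elsewhere) and eosinophils (Ccr3 called of 2 tested, with time and with hormone in controls) were read alike. Alternatives were DESeq2 1.42.0, RLE factors, no filter, only the groups compared, a muscle score (mean of 8 muscle genes) as covariate, limma 3.58.1 on log2(FPKM + 1) and log2(FPKM + 0.1), the replicate block, length and GC offsets, and leaving out each mouse. The methods were tested on simulated counts.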

Additional observations from a re-analysis of the deposited data

Results flagged for a closer look

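In groups of 5 mice, the highest or lowest mouse was tested against its nearest neighbour with Dixon's ratio (critical value 0.71), which chance passes in about 1 of 20 groups. It passed in 6 of 80 gene and group combinations. S100a8 in control mouse 5 at 5 d was high, at 5.43 log2 CPM (514 counts) with the next mouse at 0.13. S100a9 did not follow it, with 63 counts in that mouse, and the ratio of S100a8 to S100a9 counts of 8.159 was the highest of the 40 mice, with at most 1.0 in the others. The same mouse had the highest Prtn3 count of the 40 mice, 149. Control mouse 3 at 7 d was low for both S100a8, at -2.7 log2 CPM (1 count), and S100a9, at -0.86 (8 counts). Retnlg in Jag antibody mouse 10 at 7 d was low at -2.79 (1 count), Mmp9 in Jag antibody mouse 7 at 15 h at 2.0, and Itgam in control mouse 2 at 5 d at 0.35. Control mouse 2 at 15 h did not pass this ratio on the log scale for any of the 10 genes.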

How the results depend on the processing

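Ly6c2 and Fgr had under 10 counts in each control mouse at 7 d, which limits their precision. The alternative without control mice 2 and 3 at 15 h was added after seeing the data, and the causes of the differences below were not tested. At 15 h between antibodies, where the main count of called members was 0, DESeq2 called 5, length and GC offsets 1 (Fcgr3), and leaving out each mouse 0 to 5 (5 without control mouse 1 or 4, 3 without mouse 5). On log2(FPKM + 1) with limma S100a8 and S100a9 were positive there (0.11 and 0.27), and on log2(FPKM + 0.1) S100a8 (0.32), S100a9 (0.67) and Retnlg (0.25) were. Leaving out each mouse gave -3.18 to 0.94 for S100a8, -2.8 to 1.29 for S100a9 and -2.97 to 2.06 for Retnlg. Without mice 2 and 3 the changes at 15 h were 3.1 for S100a8, 3.25 for S100a9, 3.57 for Retnlg, 1.92 for Csf3r, 1.11 for Il1b, 0.77 for Ly6c2, 0.45 for Mmp9, 0.43 for Itgam and 0.42 for Fgr. Over time in control mice that alternative called 3 of 10 and turned S100a9 (0.44) and Retnlg (2.33), while leaving out each mouse called 7 to 10, with -4.07 to 0.8 for Retnlg. At 5 d, where 1 was called, DESeq2 called 2, the muscle covariate 0, log2(FPKM + 1) 0, and leaving out each mouse 0 to 1. For hormone in controls (4 called) log2(FPKM + 1) called 1 (and 7093 of 17079 genes in either direction) and leaving out each mouse 3 to 4. For hormone in Jag antibody mice (0 called) the groups alone called 2 and leaving out each mouse 0 to 1 (1 without mouse 6 at 7 d). For time in Jag antibody mice (3 called) DESeq2 and the groups alone called 7 each, no filter 1, log2(FPKM + 1) 1, and leaving out each mouse 0 to 3. Of all genes, DESeq2 called 3880 of 17079 there and the groups alone 4221 of 14934, in either direction. With only the groups of the comparison, Retnlg failed the filter in 4 comparisons and Ly6c2 in 1. The replicate block on mouse numbers called 1 of 10 for time in Jag antibody mice (Itgam; Il1b, Fgr and Csf3r were at adjusted p = 0.05104, 0.05446 and 0.0883), and 0 with length and GC offsets as well, and 9 for time in controls in both; it left the hormone counts at 4 and 0. Same-numbered mice correlated at 0.09818 to 0.18539 on average, and 1, 1, 2 and 3 of 5 correlated best with their own number, a hint from the data and not the design. Counts over all genes moved more than 1.5 times as follows. At 15 h (194) they were 577 with DESeq2, 26 without the filter, 0 with the groups alone, 118 with the muscle covariate, 26 and 21 with limma at pseudocounts of 1 and 0.1, 3 without mice 2 and 3, and 6 to 683 leaving out each mouse. At 5 d (1369) they were 837 without the filter, 431 with the groups alone, 89 with the muscle covariate, and 384 to 2833 leaving out each mouse. At 7 d (427) they were 858 with DESeq2, 191 without the filter, 53 with the groups alone, and 144 to 912 leaving out each mouse. At 7 d with hormone (194) they were 449 with DESeq2, 117 without the filter, 694 with the groups alone, 505 and 415 with limma, and 79 to 241 leaving out each mouse. For hormone in Jag antibody mice (1622) they were 990 without the filter, 2782 with the groups alone, and 1002 to 1903 leaving out each mouse. For time in Jag antibody mice (3126) they were 2057 without the filter, 1911 with offsets, 1739 with block and offsets, and 1678 to 3167 leaving out each mouse. For time in controls (7698) they were 4422 without mice 2 and 3. For the interaction (1) they were 9 with DESeq2, 36 and 28 with limma, 0 or 1 with the other alternatives, and 0 to 2 leaving out each mouse.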
